A study of Mus musculus with 6 samples.

Results

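The genes described here encode the PER, CRY and DEC repressors of the circadian clock. They are the 8 genes listed in the deposited table as Per1, Per2, Per3, Cry1, Cry2, Ciart, Bhlhe40 and Bhlhe41, found by symbol among the 55487 genes of the table. RNA was measured in vascular endothelial cells (VECs) sorted from mouse retinas at postnatal day (P) 7.5. The 3 Bmal1;CKO libraries came from animals that were Bmal1 FL/FL, tdTomato FL/+ and Pdgf-icreER, in which Cre acts on the floxed Bmal1 gene. The 3 control libraries came from tdTomato FL/+;Pdgf-icreER animals, which carry the same reporter and the same Cre but no floxed Bmal1. Tamoxifen was given to both groups between P0.5 and P2.5. Both were on a C57BL/6 J background and were collected at noon (zeitgeber time 6 h). Pdgf-icreER expresses a tamoxifen-dependent Cre and GFP in endothelial cells, and the cells taken were positive for both GFP and tdTomato. With a single time of day, the data hold levels and no rhythm.

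In the mammalian clock, BMAL1 pairs with CLOCK and binds E-boxes, short DNA sites in the promoters of its target genes. Among those targets are the genes of its own repressors. PER and CRY proteins accumulate, enter the nucleus together and repress BMAL1-CLOCK, and their timed degradation allows the next cycle to start. CRY proteins carry most of the repressing activity, whereas PER proteins, which casein kinases phosphorylate, serve as the scaffold of the complex. CIART, also called CHRONO, is a further repressor that binds BMAL1. BHLHE40 (DEC1) and BHLHE41 (DEC2) are basic helix-loop-helix proteins that compete for the E-box itself. In this loop PER and CRY repress these genes by acting on BMAL1-CLOCK, which activates them. The comparisons below assume no direction for their RNA after loss of BMAL1.

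The promoter letters are shown first, since E-boxes are where BMAL1 would act. Promoter windows of RefSeq (GRCm38.p6), from 250 bases before to 50 bases after an annotated start, were matched for 6 of the 8 genes, and the 2 starts of Per1 made 7 windows. Per2 and Bhlhe40 have no entry. Both strands were searched for the E-box CACGTG, the related E'-box CACGTT, the D-box TTATGTAA, which PAR-bZIP factors and NFIL3 bind, and the cAMP response element (CRE) TGACGTCA, also by its half-site TGACG. In the stretches below, written 5′ to 3′ on the strand of the gene, capitals mark the E-box, E'-box (read as AACGTG where it lies on the other strand) or D-box letters, and positions are counted from 0 at the start.
Per1, first start, chr11:69098771-69098800, plus strand, -178 to -149: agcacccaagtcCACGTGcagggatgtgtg
Per3, chr4:151044804-151044882, minus strand, -217 to -139: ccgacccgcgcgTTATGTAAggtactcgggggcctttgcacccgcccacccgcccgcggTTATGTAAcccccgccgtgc
Cry1, chr10:85185097-85185145, minus strand, -91 to -43: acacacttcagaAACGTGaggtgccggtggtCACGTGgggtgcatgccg
Cry2, chr2:92434218-92434247, minus strand, -178 to -149: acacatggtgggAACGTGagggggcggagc
Ciart, chr3:95882255-95882356, minus strand, -128 to -27: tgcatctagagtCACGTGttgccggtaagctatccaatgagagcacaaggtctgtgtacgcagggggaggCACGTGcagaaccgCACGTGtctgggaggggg
Bhlhe41, chr6:145865556-145865585, minus strand, -165 to -136: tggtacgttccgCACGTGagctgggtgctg

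An E-box stood in 4 of the 7 windows, those of Per1 (first start), Cry1, Ciart and Bhlhe41, against 7.15% of the 32851 windows of the same length in the table. Ciart held 3 of them, which only 0.0883% of all windows do. The E'-box was found in Cry1 and Cry2 (4.68% of all windows). Per3 held no E-box in this window but 2 D-boxes, where 0.938% of all windows have at least 1. The full CRE was in none of the 7 windows (1.79% of all), and its half-site in 4, both starts of Per1, Cry1 and Cry2 (20.8% of all). A match describes letters in the window and is no measurement of binding.

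**Figure D1:**
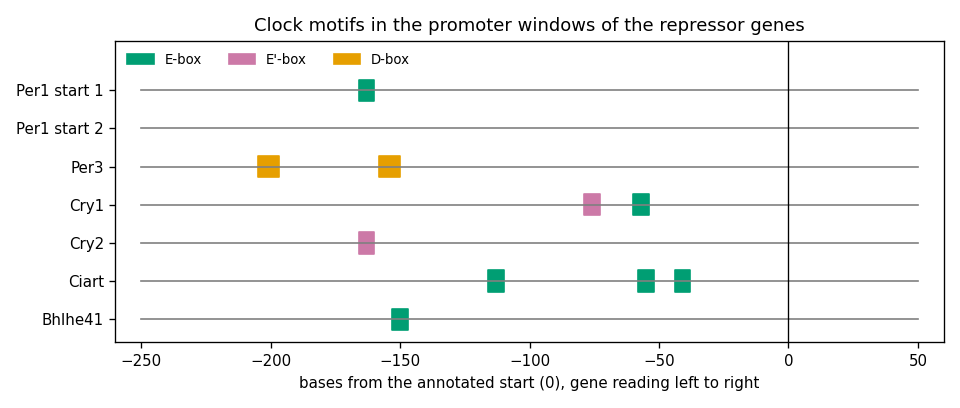
Positions of E-box, E'-box and D-box letters in the 7 RefSeq promoter windows of 6 repressor genes. The horizontal axis gives bases from the annotated start at 0, and each bar is 1 match. Ciart has 3 E-boxes, Per3 has 2 D-boxes, and the second start of Per1 has none of the 3 motifs.

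The libraries had 71145068 to 104017800 reads on genes. Bmal1, listed as Arntl (ENSMUSG00000055116, chromosome 7 of GRCm38, 113207465 to 113314126), had 1700, 3489 and 2928 normalized counts in control libraries 1, 2 and 3 and 1779, 2747 and 2415 in Bmal1;CKO libraries 4, 5 and 6. The groups overlapped, with a log2 fold change of -0.19 (standard error 0.36). Without control library 1 it was -0.49 (standard error 0.31), and all Bmal1;CKO libraries then lay below the remaining controls. After the same step the groups parted for 25.7% of all tested genes. With any other library left out the groups overlapped for Bmal1. Its log2 fold change then ran from -0.32 (without Bmal1;CKO library 5) to 0.03 (without control library 2). A count over the whole gene does not single out the floxed exon. By ddPCR, the paper reports significantly fewer Bmal1 transcripts in sorted mutant cells. The endothelial marker Cldn5 had 60099 to 201094 normalized counts, and 13 of the 14 endothelial markers had at least 10 reads in every library. Summed over the list, they reached 194055 to 372253 in control and 116925 to 245644 in Bmal1;CKO, and only Slco1a4 was at 0 in any library. The 9 markers of microglia were all present in every library, at sums of 1386183 to 4103347 in control and 2013410 to 3985845 in Bmal1;CKO. The median microglial marker stood 9.25 to 11.9 times above the median endothelial marker in control and 12.5 to 27.3 times in Bmal1;CKO. In bulk RNA, fewer cells of a type and less RNA per cell cannot be told apart. The part of these cells in the results below was not tested. Control library 1 was the highest or the lowest of the 6 libraries for 63.2% of all tested genes, against 18.8% to 37.1% for each of the others, and results below are given without it where a call, direction or spread changes.

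Of the 8 repressor genes, Per2 alone had higher counts in all 3 Bmal1;CKO libraries than in any control library. The other 7 overlapped between the groups, and 4 of them did not once control library 1 was left out. All 8 passed the filter of at least 10 reads in at least 3 libraries, 7 of them with at least 10 reads in every library, the exception being Per2, which passed through the Bmal1;CKO libraries and control library 3. Values were compared on log2(normalized count + 1) with limma-trend, fitted over all 20459 genes that passed. At an adjusted p under 0.05 there were 0 of the 8 genes, as of all genes (0.00%). Of the 8, edgeR's quasi-likelihood test called 0 (0.00% of all genes), as did DESeq2's Wald test (0.331% of all genes). At an unadjusted p under 0.05 there was 1 gene, Per2, where 4.92% of all genes passed (3.17% higher in Bmal1;CKO), and 0 by edgeR (3.80% of all genes) and by DESeq2 (6.01%). Groups that did not overlap were likewise found for 1 of the 8 and for 11.2% of all genes (6.62% higher in Bmal1;CKO). The fitted difference was above 0 for 6 of the 8 and for 56.6% of all genes. The median difference over the 8 was 0.24 on the log2 scale, beside 0.11 over all genes (-0.03 with edgeR and DESeq2), and the same 6 lay above that 0.11. An exact permutation test of 3 libraries against 3 cannot give a p below 0.1.

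**Figure D2:**
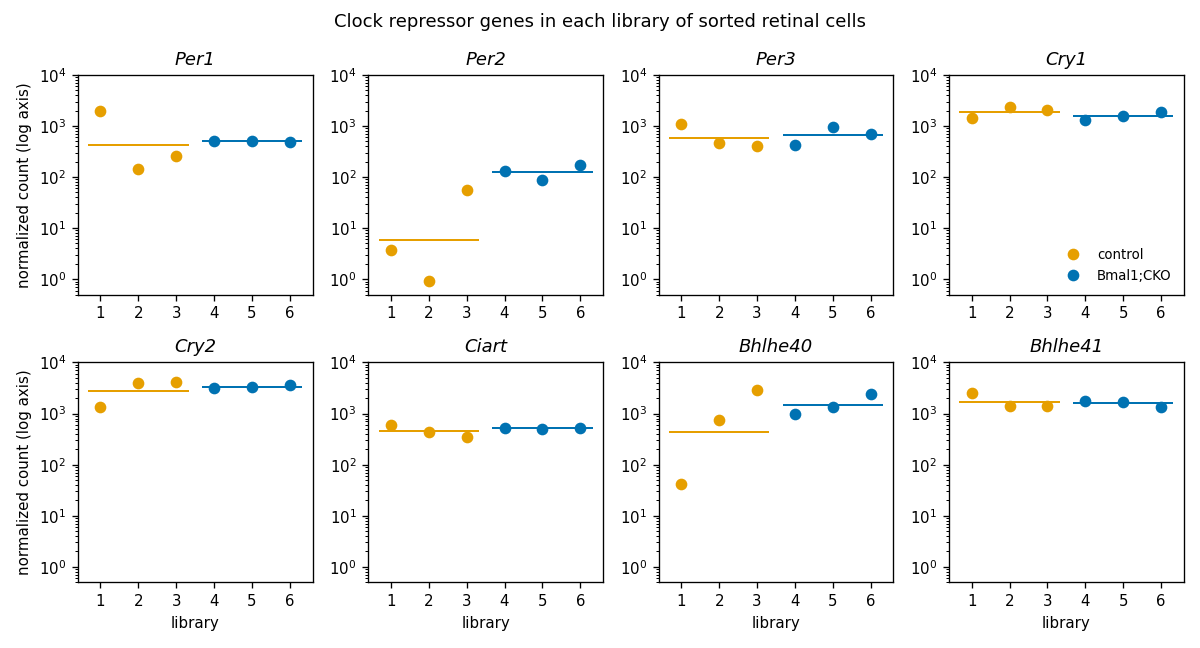
Normalized count (log axis) of each repressor gene in control libraries 1 to 3 and Bmal1;CKO libraries 4 to 6, with 1 point per library and a line at the geometric mean of each group. Per2 is higher in every Bmal1;CKO library (87.2 to 174) than in control (0.928 to 55.0), and control library 1 stands apart for Per1 and Bhlhe40.

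Per2 (ENSMUSG00000055866, chromosome 1 of GRCm38, 91415982 to 91459324, minus strand) encodes a scaffold of the repressor complex. It had 3.69, 0.928 and 55.0 normalized counts in control libraries 1, 2 and 3 and 134, 87.2 and 174 in Bmal1;CKO libraries 4, 5 and 6. Its values in Bmal1;CKO spanned 1.99-fold, whereas those in control spanned 59.3-fold, with control library 3 near the lowest Bmal1;CKO library. Those control values rest on 3 reads (95% Poisson interval 0.619 to 8.77), 1 read (0.0253 to 5.57) and 77 reads (60.8 to 96.2), and the Bmal1;CKO values on 95, 101 and 211 reads. Summed over the libraries of a group and scaled by their size factors, the Bmal1;CKO reads were 5.36 times the control reads, with an interval of 4.22 to 6.89 that covers counting error only.
The log2 fold change of Per2 was 4.00 (95% interval 0.73 to 7.27, standard error 1.41, unadjusted p = 0.0227, adjusted p = 0.883 from limma-trend), and the exact two-sided permutation test gave p = 0.1, the smallest possible. The size of this change moved with the treatment of low values. It was 2.68 with a pseudocount of 10 and 2.69 with edgeR. With limma-trend, leaving out control library 2 gave 2.98, and leaving out control library 3 gave 5.41. The adjusted p lay between 0.189 and 1.00 over all alternatives.

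Per1 (ENSMUSG00000020893, chromosome 11, 69095217 to 69109960, plus strand), a PER protein gene that hormones and cAMP also induce acutely, had 1971, 143 and 261 normalized counts in control libraries 1, 2 and 3. In Bmal1;CKO libraries 4, 5 and 6 it had 515, 516 and 475. The Bmal1;CKO libraries agreed within 1.08-fold, and they fell between control library 1 on one side and control libraries 2 and 3 on the other. Its fitted log2 fold change was 0.26 (95% interval -1.90 to 2.41, standard error 0.93, adjusted p = 0.961 from limma-trend). Its direction turned with the test, to -0.65 with edgeR and -0.66 with DESeq2. Without control library 1 it was 1.37 (standard error 0.48, unadjusted p = 0.0189, adjusted p = 0.526 from limma-trend), and all Bmal1;CKO libraries then lay above control. Of 10 genes responsive to cAMP or glucocorticoids, 9 were tested. Fos, Dusp1 and Nr4a1 are the 3 of them with an unadjusted p under 0.05 by limma-trend. Among the controls, Fos and Dusp1 were highest in control library 1, whereas Nr4a1 was highest in control library 2. Fos had 154759, 59463 and 60585 normalized counts in control and 220476, 201329 and 144026 in Bmal1;CKO, and Dusp1 had 77974, 36336 and 38929 in control and 98437, 93485 and 85283 in Bmal1;CKO. Unlike Per1, Dusp1 was higher in all 3 Bmal1;CKO libraries than in control library 1, and Fos in libraries 4 and 5. Against control libraries 2 and 3 alone, Fos was higher in all 3 Bmal1;CKO libraries. The part of acute induction in the values of Per1 was not tested.

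Per3 (ENSMUSG00000028957, chromosome 4, 151003652 to 151044665, minus strand), the third PER protein gene, had 1096, 458 and 396 normalized counts in control and 432, 962 and 688 in Bmal1;CKO. The groups covered nearly the same range, with control library 1 the highest of the 6. Between the groups the log2 fold change was 0.17 (95% interval -1.12 to 1.46, standard error 0.55), which became -0.11 when control library 3 was left out, -0.10 for Bmal1;CKO library 5 and 0.63 for control library 1. The PER genes therefore shared no pattern over all 6 libraries. Control library 1 was the highest for Per1 and Per3 and next to the lowest for Per2.

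Cry1 (ENSMUSG00000020038, chromosome 10, 85131700 to 85185064, minus strand) and Cry2 (ENSMUSG00000068742, chromosome 2, 92403646 to 92434043, minus strand) encode the proteins that inhibit BMAL1-CLOCK directly. Cry1 had 1405, 2387 and 2039 normalized counts in control and 1300, 1534 and 1882 in Bmal1;CKO. Only control library 1 kept the groups from parting, since the other controls lay above all Bmal1;CKO libraries. For Cry1 the log2 fold change was -0.29 (95% interval -1.05 to 0.48, standard error 0.33), and it stayed below 0 with each library left out, between -0.51 and -0.12. Cry2 had 1323, 3885 and 4206 normalized counts in control and 3115, 3238 and 3686 in Bmal1;CKO. Here too control libraries 2 and 3 were above every Bmal1;CKO library, and control library 1 was far below. For Cry2 the log2 fold change was 0.26 (95% interval -0.80 to 1.32, standard error 0.46) with all libraries and -0.28 (standard error 0.27) without control library 1. Neither gene passed the test in either form (adjusted p = 0.888 and 0.914 with all libraries, 0.664 and 0.798 without control library 1, limma-trend). The noncoding gene D930015M05Rik shares 295 exon bases with Cry2 on the other strand and had 0 to 30 reads, against 1075 to 5886 on Cry2.

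Ciart (ENSMUSG00000038550, chromosome 3, 95878503 to 95882251, minus strand), the gene of the 3 E-boxes shown above, had 591, 440 and 342 normalized counts in control. In Bmal1;CKO it had 512, 510 and 532, a range of 1.04-fold. These values lay inside the range of the controls, above control libraries 2 and 3 and below control library 1. Ciart had a log2 fold change of 0.21 (95% interval -0.82 to 1.24, standard error 0.44, adjusted p = 0.929 from limma-trend). It was 0.42 when control library 1 was left out and 0.02 when control library 3 was. The interval does not reach a loss of more than 0.82 on the log2 scale.

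Bhlhe40 (DEC1, ENSMUSG00000030103, chromosome 6, 108660629 to 108666925, plus strand) had the widest spread of the 8 among the controls. It had 41.8, 741 and 2844 normalized counts in control and 1000, 1340 and 2450 in Bmal1;CKO. The controls spanned 68.0-fold and enclosed all 3 Bmal1;CKO libraries. The log2 fold change of 1.73 (95% interval -1.44 to 4.90, standard error 1.36, adjusted p = 0.883 from limma-trend) was 0.03 without control library 1 and 3.06 (unadjusted p = 0.0402, adjusted p = 0.391) without control library 3, while edgeR gave 0.39. Control library 1, with 34 reads on Bhlhe40, was also the lowest of the 6 libraries for the summed markers of several cell types. For those of pericytes, astrocytes, bipolar cells, ganglion cells and erythroid cells, control library 3 was the highest. For cone and amacrine markers the sum was highest in Bmal1;CKO library 4. The median marker ranked some of these lists differently. For bipolar cells it was lowest in Bmal1;CKO library 4 (992 normalized counts) and highest in control library 2 (2446). For ganglion cells it was highest in Bmal1;CKO library 4 (2356, against 2315 in control library 3), and for amacrine cells in control library 2 (839). The summed markers of endothelial cells, microglia and Müller glia were instead highest in control library 1, but the median markers of these lists were not. For Müller glia the median was lowest in control library 1 (5331 normalized counts, against 5998 to 11422 in the other libraries). For endothelial cells and microglia it was highest in Bmal1;CKO library 6 (9473 and 118104). The sum over the 7 pericyte markers was 2637, 7169 and 46180 normalized counts in control and 7643, 4185 and 6927 in Bmal1;CKO. That over the 5 astrocyte markers was 520, 2157 and 6168 in control and 2498, 2353 and 1355 in Bmal1;CKO. Abcc9 and Pax2 were the markers at 0 in some library, and the part of these cells in the values of Bhlhe40 was not tested.

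Bhlhe41 (DEC2, ENSMUSG00000030256, chromosome 6, 145858243 to 145865558, minus strand) ran the other way. It had 2471, 1436 and 1375 normalized counts in control and 1802, 1673 and 1328 in Bmal1;CKO, with control library 1 the highest where it was the lowest for Bhlhe40. Bhlhe41 had a log2 fold change of -0.10 (95% interval -0.90 to 0.71, standard error 0.34, adjusted p = 0.961 from limma-trend). It was 0.18 when control library 1 was left out and 0.03 when Bmal1;CKO library 6 was. The 9 summed microglial markers were highest in control library 1 and, within Bmal1;CKO, in library 4, as Bhlhe41 was, whereas the median marker of that list was highest in control library 3 (102929 normalized counts) and Bmal1;CKO library 6 (118104). The part of microglia in these values was not tested. The gene model Gm43909 shares 1280 exon bases with Bhlhe41 on the other strand and had 0 to 103 reads, against 1281 to 2008 on Bhlhe41.

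**Figure D3:**
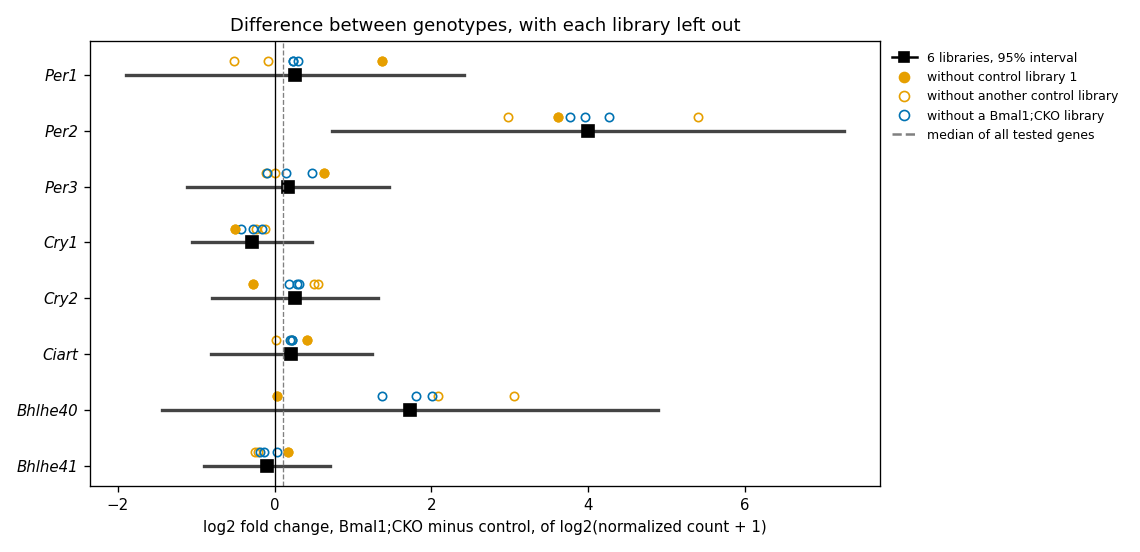
Log2 fold change of each repressor gene, Bmal1;CKO minus control, on log2(normalized count + 1). Squares with lines are the limma-trend values of 6 libraries with 95% intervals, circles the same fit with 1 library left out (filled for control library 1), the solid vertical line is 0 and the dashed line the median of all tested genes (0.11). The interval of Per2 alone lies above 0 (0.73 to 7.27), and leaving out control library 1 moves Per1 to 1.37 and Bhlhe40 to 0.03.

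Leaving out control library 1 parted the groups for 5 of the 8 genes. Per1, Per2 and Ciart were then higher, and Cry1 and Cry2 lower, in all 3 Bmal1;CKO libraries than in both remaining controls. Among all tested genes the share that parted was 25.7% after the same step, against 11.2% with all 6 libraries. Without control library 3, Per2 and Bhlhe40 parted, as did 30.7% of all genes. Leaving out control library 2 or Bmal1;CKO library 4, 5 or 6 parted Per2 alone, beside 19.5%, 17.6%, 16.9% and 19.0% of all genes. At an unadjusted p under 0.05 there were 2 of the 8 genes without control library 1 (Per1 and Per2, 8.63% of all genes) and 2 without control library 3 (Per2 and Bhlhe40, 11.9%). There were 0 without control library 2 (4.52%) or Bmal1;CKO library 4 (1.64%), 5 (1.64%) or 6 (2.86%), by limma-trend. With 2 libraries against 3 these are descriptions, and 0 of the 8 genes had an adjusted p under 0.05 in any of these fits.

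The spread between libraries was larger in control than in Bmal1;CKO for all 8 genes, on the log2 scale, and for 75.0% of all tested genes. For 4 of the 8 this rested on control library 1. Without it, the spread was larger in Bmal1;CKO for Per3, Cry1, Cry2 and Bhlhe41 and remained larger in control for Per1, Per2, Ciart and Bhlhe40, while the share over all genes was 51.9%. Without control library 2 or 3 or Bmal1;CKO library 4 or 5, it was larger in control for all 8 (69.5%, 63.9%, 83.3% and 73.3% of all genes), and without Bmal1;CKO library 6 for all but Per3 (76.0%). With all libraries, the control SD was 1.98 for Per1, 2.52 for Per2 and 3.09 for Bhlhe40. The corresponding SD in Bmal1;CKO was 0.07, 0.50 and 0.66. The SDs of Ciart were 0.39 in control (0.26 without control library 1) and 0.03 in Bmal1;CKO. Those of Cry2 were 0.93 in control and 0.13 in Bmal1;CKO, but 0.08 in control without library 1. Control library 1 held the highest value of the 6 for 4 of the genes, Per1, Per3, Ciart and Bhlhe41, and the lowest for Cry2 and Bhlhe40.

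Levels were set against each other per kilobase of exon. Cry2 and Cry1 were the most abundant, with medians over the 6 libraries of 548 and 511 normalized counts per kilobase. Bhlhe40 (249), Bhlhe41 (231) and Ciart (226) followed, then Per1 (87.9) and Per3 (59.7), and Per2 (12.1) was the lowest. The order of the means of the 2 CRY genes depended on the length used. In control the mean of Cry1 was 582 ± 149 (SD, n = 3) and that of Cry2 497 ± 250 (SD, n = 3), whereas in Bmal1;CKO they were 471 ± 87.7 and 529 ± 47.5 (SD, n = 3 each). Per kilobase of the longest transcript, Cry2 was above Cry1 in both groups, at means of 789 against 642 in control and 842 against 519 in Bmal1;CKO. In control, all neighbours in the order overlapped in their values except Per3 (67.7 ± 40.3) and Per2 (3.39 ± 5.20, SD, n = 3 each). In Bmal1;CKO the order broke at Ciart (229 ± 5.49) over Per1 (89.1 ± 4.09) and again at Per3 (72.2 ± 27.6) over Per2 (22.5 ± 7.40, SD, n = 3 each), while the other neighbours overlapped. Per2 was thus the least abundant PER gene in each of the 6 libraries.

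**Figure D4:**
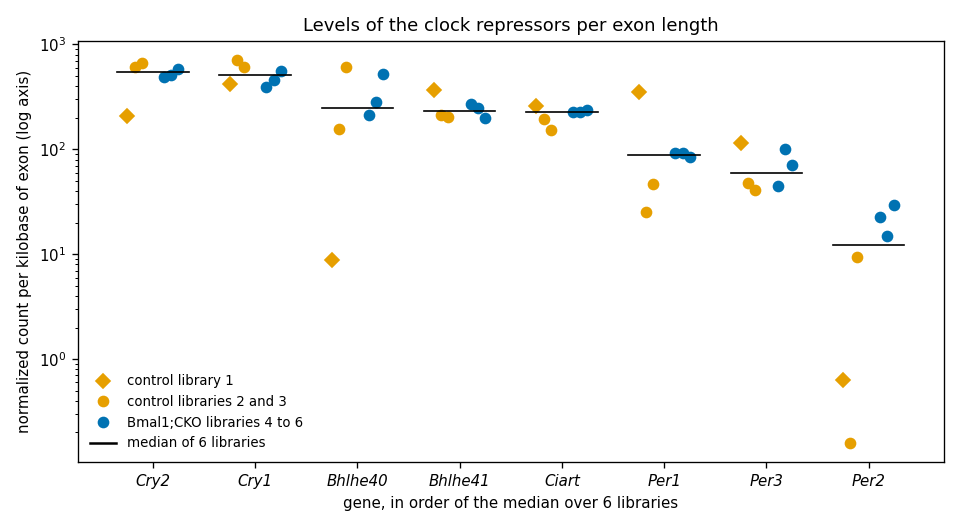
Normalized count per kilobase of exon (log axis) of the 8 repressor genes in each library, ordered by the median over the 6 libraries (black line). Diamonds mark control library 1. The CRY genes lead at medians of 548 and 511, and Per2 is last at 12.1.

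Ratios of related genes within a library do not depend on its size factor and were read as values, with no test. Per1 exceeded Per2 by 9.06, 7.27 and 2.24 on the log2 scale in control and by 1.95, 2.56 and 1.45 in Bmal1;CKO. Control library 3 lay within the Bmal1;CKO range, while the other controls were far above it, at up to 534 reads of Per1 for each read of Per2. The log2 ratio of Cry1 to Cry2 was 0.09, -0.70 and -1.04 in control and -1.26, -1.08 and -0.97 in Bmal1;CKO. Cry2 therefore had about as many counts as Cry1 in control library 1 and more in the other 5. The log2 ratio of Bhlhe40 to Bhlhe41 was -5.88, -0.95 and 1.05 in control and -0.85, -0.32 and 0.88 in Bmal1;CKO. For each pair the groups overlapped, and the Bmal1;CKO libraries were closer to each other than the controls were, with SDs of 0.56, 0.15 and 0.89 against 3.53, 0.58 and 3.57. Without control library 1 the control SDs were 3.55, 0.24 and 1.42.

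**Figure D5:**
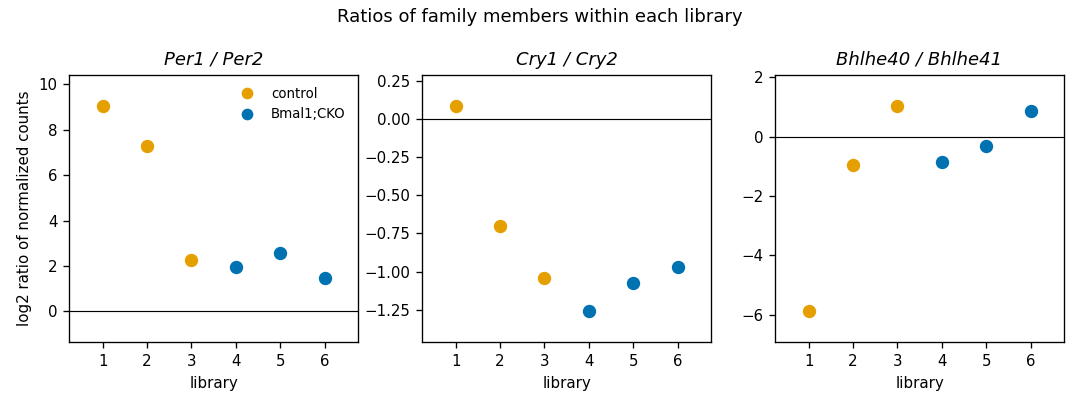
Log2 ratio of normalized counts of related repressor genes in each library, with 0 marking equal counts. Per1 to Per2 is 9.06 in control library 1 and between 1.45 and 2.56 in Bmal1;CKO, and Bhlhe40 to Bhlhe41 is lowest in control library 1, at -5.88.

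The other genes of the clock were followed as lists, by their counts and medians. Over all tested genes, 56.6% were higher in Bmal1;CKO and 4.92% had an unadjusted p under 0.05 by limma-trend. Groups did not overlap for 11.2% of them. All 4 activators (Bmal1, its paralog Arntl2, Clock and Npas2) were tested, with 2 higher in Bmal1;CKO, 2 lower, a median of 0.02 on the log2 scale and 0 genes at an unadjusted p under 0.05. Of 9 genes of the second loop and the output, 6 were higher and 3 lower (median 0.21), and 1 passed an unadjusted p under 0.05. It was Nr1d2, the REV-ERBβ repressor of Bmal1, at 543, 1200 and 790 normalized counts in control and 253, 374 and 457 in Bmal1;CKO (log2 fold change -1.19, standard error 0.50, unadjusted p = 0.0451, adjusted p = 0.883 from limma-trend). All 3 Bmal1;CKO libraries lay below the controls, opposite to Per2.
Of 13 genes for the turnover of PER and CRY, 7 were higher and 6 lower (median 0.03). Csnk1e, a casein kinase that phosphorylates PER proteins, had 9152, 6347 and 9304 normalized counts in control and 12246, 12170 and 12184 in Bmal1;CKO (log2 fold change 0.58, standard error 0.24, unadjusted p = 0.0440, adjusted p = 0.883 from limma-trend). Fbxw11, a subunit of the ligase that marks phosphorylated PER for degradation, had 3470, 3192 and 5095 in control and 1703, 1810 and 3076 in Bmal1;CKO (-0.86, standard error 0.34, unadjusted p = 0.0367, adjusted p = 0.883 from limma-trend). For both genes the groups did not overlap.
Of 8 partners of the PER complex, 5 were higher and 3 lower (median 0.18). Among them Hdac1, a histone deacetylase, had 2820, 2231 and 1548 normalized counts in control and 727, 917 and 1082 in Bmal1;CKO (-1.25, standard error 0.35, unadjusted p = 0.00842, adjusted p = 0.883 from limma-trend). Of 10 genes responsive to cAMP or glucocorticoids, as Per1 is, 9 were tested, 6 higher and 3 lower (median 0.25). At an unadjusted p under 0.05 there were 3, all higher. These were Fos (log2 fold change 1.17), Dusp1 (0.94) and Nr4a1 (1.44), the last at 2423, 2660 and 2143 normalized counts in control and 11764, 4683 and 4961 in Bmal1;CKO. In each of the 5 lists 0 genes had an adjusted p under 0.05.

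Over the 6 libraries, the genes closest in pattern to each repressor were found by Pearson's coefficient of log2(normalized count + 1) among 15046 genes (10 or more reads in each of the 6). They are named as a description, and all points share the same 6 libraries. For Per1 they were Dip2b (0.997) and Pdzd8 (0.993), and for Per2 Ssh3 (0.991) and Mfap3 (0.991). Per3 lay closest to Gm14051 (0.983) and Brpf3 (0.982). For Cry1 they were Ufd1 (0.996) and Atf2 (0.995), and for Cry2 Phtf1 (0.998) and Cbx2 (0.997). Ciart lay closest to Gm43668 (0.991) and to Insr (0.985), the insulin receptor gene. For Bhlhe40 they were Retreg3 (0.998) and Camk2b (0.997), and for Bhlhe41 Bcl2l12 (0.992) and Smap1 (0.990). As many as 53 genes had a coefficient of at least 0.99 with Cry2 and 36 with Bhlhe40, both genes that were lowest in control library 1. Per2 had too few reads to be compared as a candidate, and none of the other 7 repressors was among the 2 closest genes of another.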

How the data were processed

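RNA of VECs sorted from 3 Bmal1;CKO and 3 control animals went through Smart v4 amplification and Nextera XT library preparation. The authors used FastQC and Trimmomatic before alignment with Bowtie to mm10 (Ensembl GRCm38 v87) and counting with featureCounts. Versions and the use of strand are not given in the sources used here. The authors deposited, per gene and library, a signal (reads over the size factor of DESeq2), here called the normalized count. The same deposited table holds the mean over libraries and the authors' own comparison (log2 fold change, standard error as a score, Wald score, p-value and adjusted p-value), none of which was used. The column names give the genotype but carry other numbers than the labels, so a column stood only for a replicate of its genotype.

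Dividing each column by its smallest step gave whole reads (within 0.01) for 100% of values, with size factors of 0.711 to 1.40. Genes reaching 10 reads in 3 or more libraries were tested by limma-trend (limma 3.58.1, R 4.3.3) on log2(normalized count + 1), by genotype alone, with Benjamini-Hochberg adjustment over 20459 genes. The fit was tested on simulated data. Alternatives were edgeR 4.0.16, DESeq2 1.42.0 and limma-voom on the whole reads, pseudocounts of 0.5 and 10, log2 CPM, 2 other filters and leaving out each library. With DESeq2, 67 genes in all reached an adjusted p under 0.05. Gene spans and exon lengths are from GENCODE M21 (GRCm38), 1-based. Deposited starts are 1 lower. Single values were compared by exact permutation tests. The 8 genes and all lists were chosen with earlier results of these data known. Other genes named are, per list, at most 3 with an unadjusted p under 0.05, the 2 of most similar pattern per repressor, and markers. Tables were made with pandas 2.3.3 and scipy 1.17.1 (Python 3.11.15), figures with matplotlib 3.10.9. Where counts are compared, intervals cover counting error only, since amplified reads are not independent molecules.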

Additional observations from a re-analysis of the deposited data

How the results depend on the processing

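Under 15 alternatives, 0 of the 8 repressors reached an adjusted p under 0.05, and 4 to 7 were higher in Bmal1;CKO. Per2, Cry1, Ciart and Bhlhe40 kept their direction in every alternative that tested them. Per1 turned to -0.65 with edgeR and TMM scaling, to -0.66 with edgeR and the size factors and to -0.66 with DESeq2. With 1 library left out, Per1 ranged from -0.52 (without control library 2, and -0.08 without control library 3) to 1.37. Per3 ranged from -0.11 to 0.63, with -0.10 for leaving out Bmal1;CKO library 5 and -0.00031 for control library 2. Cry2 ranged from -0.28 to 0.56 and Bhlhe41 from -0.25 to 0.18, with 0.03 without Bmal1;CKO library 6. The count of repressors at an unadjusted p under 0.05 was 1. It was 0 with edgeR (both scalings), with DESeq2 and with at least 10 reads in every library, which drops Per2, and it ran from 0 to 2 with a library left out. Groups that did not overlap ranged from 1 to 5 repressors, the most without control library 1. The spread was larger in control for 8 repressors, and for 4 (without control library 1) to 8 with a library left out, an alternative chosen after seeing the data. Over all genes, 0 had an adjusted p under 0.05, against 67 with DESeq2, 1 with each other filter and 0 to 6 with a library left out, 6 without control library 1. Of the genes in the 5 clock lists (4, 9, 13, 8 and 9 tested), 7 had an unadjusted p under 0.05 by limma-trend, beside 4.92% of all tested genes. The lists were chosen with earlier results of these data known, so this count is a description only. With a library left out the count was 2 to 9, the most without control library 1. The share of all genes was then 1.64% to 11.9%, and 8.63% without control library 1. Beyond the libraries and filters named, the cause was not tested.

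Per length of the longest transcript instead of all exons, the medians of Cry2 and Per3 were 871 and 95.5, and Ciart (263) stood above Bhlhe41 (254). The promoter counts were the same over the upstream bases alone. No paired analysis was possible because the columns of the table do not carry the replicate numbers of the labels, so a fit with a replicate block was not run. With 3 libraries a group, the intervals above are wide, and for Per2 reads in control limit the precision.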

Other observations

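Markers of the retinal cell types were counted by direction in Bmal1;CKO, on the fitted values. Over all tested genes, 56.6% were higher. Marker genes of rods were lower in 11 of 12 (median log2 fold change -0.26) and bipolar markers in 6 of 8 (-0.55), while cone markers were higher in 6 of 7 (0.47), amacrine markers in 5 of 6 (0.57) and the 6 tested Müller glia markers in 6 of 6 (0.49). Ganglion cell markers were split 3 to 3 (-0.06), as were the 4 tested astrocyte markers at 2 to 2 (0.34), and pericyte markers were higher in 4 of 7 (0.59). Endothelial markers were lower in 13 of 14 (-0.50) and microglia markers higher in 8 of 9 (0.40). With a library left out, the medians crossed 0 for rods (-0.49 to 0.07), cones (-0.15 to 0.80), pericytes (-1.61 to 2.91), ganglion cells (-0.72 to 0.26), amacrine cells (-0.34 to 1.10) and astrocytes (-0.75 to 1.40). The erythroid median crossed 0 as well (-2.02 to 0.14). The medians did not cross 0 for bipolar cells, Müller glia, endothelial cells and microglia. In each list 0 genes had an adjusted p under 0.05 by limma-trend. The ganglion cell marker Pou4f2 was at 0 in some library.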
